A study of Homo sapiens with 8 samples.

Results

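The genes described here are SPRY1, SPRY2 and SPRY4 of the Sprouty family, SPRED1 and SPRED2 of the Spred family, and PTPRR, a tyrosine phosphatase that acts on ERK. They were taken as the genes with a probe set whose platform annotation names that gene alone, and all 6 were found, with 12 probe sets of the 54675 on the array. The probe set of highest mean log2 signal stands for each gene, and the others were compared with it. Of the 12, 10 passed the filter on low signals, and all 6 genes are among the 14162 tested.

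Sprouty and Spred proteins are feedback inhibitors of signalling from receptor kinases through RAS and RAF to the kinase ERK. Sprouty genes are commonly induced by ERK activity, and their proteins then restrain the cascade, while Spred proteins bring the RAS-inactivating protein neurofibromin to the membrane. PTPRR belongs to a small class of tyrosine phosphatases that bind ERK and remove its activating phosphate. In mice, SPRED1 restrains ERK activation by cytokines in blood progenitors.

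All cells carried the label HEL, an erythroleukaemia cell line of human origin whose JAK2 kinase is constitutively active, and grew in RPMI medium with serum. The drug arm has 2 arrays of cells treated with CEP701 (lestaurtinib, which inhibits JAK2 and FLT3) at 0.5 µM for 16 h, and 2 of cells kept in DMSO for 16 h. The shRNA arm has 2 arrays of a stable line with a lentiviral pLKO vector carrying 1 PRMT5 shRNA and 2 of cells with a scramble shRNA, in that vector by the array titles. PRMT5 is an enzyme that methylates arginines of histones and other proteins. The study compared the profile of drug-treated cells with that of knockdown cells. Whether a line is 1 clone is not given in the sources used here, nor whether replicates are separate cultures, so the p-values reflect just the spread among these arrays, part or all of which may be technical. Precision is set by having 2 arrays in each group.

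PRMT5 had signals of 664 and 315 on the PRMT5 shRNA arrays, against 1794 and 984 on the scramble arrays (log2 difference -1.52 ± 0.35, SE; adjusted p = 0.217, and 1.56e-04 with the replicate block, a term for the replicate number within each arm), and its other probe sets were also lower on both knockdown arrays than on both scramble arrays. PRMT5 also differed between the control groups, at 1389 on average with scramble and 3320 with DMSO (log2 difference -1.31, adjusted p = 0.0120). Pearson's r between arrays over the genes tested was 0.964 to 0.978 within a group and 0.804 to 0.845 between the arms. Of the 12 erythroid and megakaryocyte markers with a probe set, all were above the median signal on every array. Between scramble and DMSO 5 of the 12 were called, near the 45.8% of all genes called in that contrast. HBE1, an embryonic globin, averaged 11053 with CEP701, 9660 with DMSO, 535 with PRMT5 shRNA and 664 with scramble, and PF4, a platelet chemokine, 1069, 1853, 28637 and 35492 in the same groups. The arms differed in markers of other cells too: the summed signal of 16 markers of other blood cells was 8888 to 10329 with CEP701, 6392 to 6586 with DMSO, 69990 to 107169 with PRMT5 shRNA and 94972 to 111722 with scramble. MPO, a granule enzyme of myeloid cells, averaged 33.8 with CEP701, 31.1 with DMSO, 14597 with PRMT5 shRNA and 18634 with scramble. Within an arm the granulocyte markers MPO, ELANE and S100A8 were either low in both groups or high in both. This does not hold for the whole list. LYZ, another of the 16, averaged 8260 with CEP701, 5272 with DMSO, 33164 with PRMT5 shRNA and 29441 with scramble, so it weighs heavily in the drug-arm sums. Of the 15 tested, 10 were higher and none lower in scramble than in DMSO cells, beside 25.5% of all genes higher and 20.3% lower. The 11 fibroblast and epithelial markers summed to 1956 to 2118 with CEP701, 2046 to 2178 with DMSO, 3339 to 6657 with PRMT5 shRNA and 4979 to 6498 with scramble. These sums hide opposite directions: of the 10 tested, 4 were higher and 2 lower in scramble than in DMSO cells. Those counts stand beside the same 25.5% and 20.3% of all genes. EPCAM averaged 36.5 with CEP701, 33.4 with DMSO, 1618 with PRMT5 shRNA and 1820 with scramble. KRT18 went the other way, at 1322, 1314.5, 222 and 271 in the same groups. A value that sets one arm against the other is therefore given as a description of these samples.

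The promoters of SPRY1 and PTPRR are shown because these genes changed with the drug. The sequences are RefSeq windows of GRCh38.p14 from 250 bases before to 50 after an annotated start, with all 6 genes matched by symbol and 12 windows in all. SPRY1 has 2 such windows on the plus strand of chromosome 4, and of PTPRR's 3 windows on the minus strand of chromosome 12 the one farthest upstream is shown. Capitals mark a match to the STAT motif TTCNNNGAA.
SPRY1, chr4:123396545-123396844: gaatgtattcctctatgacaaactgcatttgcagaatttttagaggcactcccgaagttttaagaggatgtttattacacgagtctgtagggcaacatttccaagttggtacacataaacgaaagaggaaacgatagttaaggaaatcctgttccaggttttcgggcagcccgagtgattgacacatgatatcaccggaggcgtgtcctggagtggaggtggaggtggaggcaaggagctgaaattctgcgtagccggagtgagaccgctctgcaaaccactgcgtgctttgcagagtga
SPRY1, chr4:123398136-123398435: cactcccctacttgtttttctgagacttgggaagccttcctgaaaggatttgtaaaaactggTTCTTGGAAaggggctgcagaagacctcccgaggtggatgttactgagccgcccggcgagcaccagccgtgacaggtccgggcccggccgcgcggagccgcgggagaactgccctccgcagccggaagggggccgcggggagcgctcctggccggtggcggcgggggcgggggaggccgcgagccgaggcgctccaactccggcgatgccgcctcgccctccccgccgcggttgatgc
PTPRR, chr12:70788871-70789170: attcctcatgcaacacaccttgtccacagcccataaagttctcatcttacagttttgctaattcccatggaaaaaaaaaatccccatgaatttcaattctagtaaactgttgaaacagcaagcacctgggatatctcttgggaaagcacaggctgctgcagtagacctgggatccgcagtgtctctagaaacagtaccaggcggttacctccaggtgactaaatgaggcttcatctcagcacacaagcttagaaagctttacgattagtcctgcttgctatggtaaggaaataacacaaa
The motifs searched on both strands were GTAAACA for FOXO, CCGGAAGT for ETS, TTCNNNGAA for STAT and TGACTCA for AP-1. Of the 12 windows, the second SPRY1 window held the STAT letters, 188 bases before the start, and 1 SPRED2 window held the AP-1 letters, 6 bases before it. No window of the 6 genes held the FOXO or the ETS letters. Among all 35116 windows of the same length, 7.66% held the STAT letters, 4.95% the AP-1 letters, 4.14% the ETS letters and 3.42% the FOXO letters. A match is a description of the letters and not a binding site.

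CEP701 was set against DMSO to find the transcripts that inhibition of the kinases alters. SPRY1 rose and PTPRR fell, and SPRY2, SPRY4, SPRED1 and SPRED2 did not pass the test. The share of 2 of 6 stands beside 5.78% of all genes called in either direction, 3.74% higher and 2.04% lower. The median log2 difference of the 6 genes was -0.17, against 0.10 for all genes. In bulk RNA, fewer cells of a type and less RNA per cell cannot be told apart.

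SPRY1 had signals of 575 and 552 with CEP701, against 161 and 145 with DMSO. Both treated arrays were above both vehicle arrays, and the gap was many times the difference between arrays of one group. The log2 difference was 1.82 ± 0.20 (SE; 95% interval 1.36 to 2.28; adjusted p = 3.99e-03), a 3.52-fold rise. The call was lost without CEP701 replicate 1 (adjusted p = 0.0753), without CEP701 replicate 2 (0.0696) and without DMSO replicate 2 (0.0732), where the difference itself stayed between 1.74 and 1.84. The second SPRY1 probe set had signals of 167 and 157 with CEP701, against 108 and 103 with DMSO. It too was higher on both treated arrays, but its log2 difference of 0.58 did not pass (adjusted p = 0.331 with every probe set tested, where 4.78% of probe sets were called), so the probe sets differ in the size of the change.

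PTPRR had signals of 5.34 and 3.84 with CEP701, against 89.2 and 151 with DMSO. These treated values lie at percentiles 12.1 and 6.28 of all probe sets on their arrays, and the vehicle values at percentiles 59.9 and 66.6. The log2 difference, with 10 added to each signal, was -3.12 ± 0.60 (SE; 95% interval -4.47 to -1.77; adjusted p = 0.0234). Since the treated signals are below the added 10, that number sets the size: the same probe set gave -4.40 with 1 added and -2.03 with 32 added. The second PTPRR probe set, with nearly the same mean log2 signal, had 27.5 and 17.0 with CEP701, against 55.4 and 52.5 with DMSO. It was lower on both treated arrays at -1.01, without passing (adjusted p = 0.229 with every probe set tested), and the vehicle signals there were already below the median of all signals, 60.0. The call at the chosen probe set was lost without any 1 of the 4 drug-arm arrays, with adjusted p of 0.103 to 0.189 and differences of -3.47 to -2.77. It was also lost with the mean of both probe sets (-2.06, adjusted p = 0.0522) and without a variance trend (adjusted p = 0.0704).

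**Figure D1:**
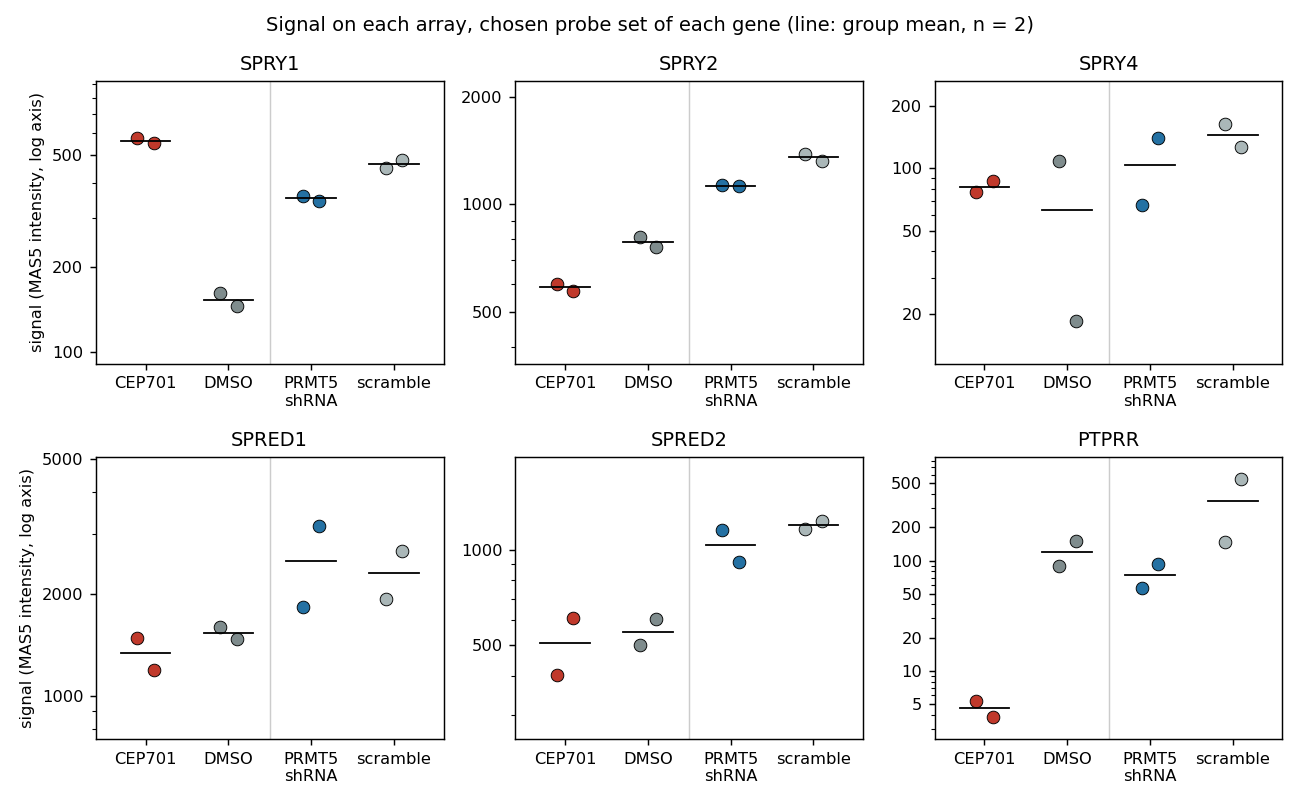
Signal on each array at the chosen probe set, in MAS5 intensity on a log axis, with CEP701 and DMSO left of the line and PRMT5 shRNA and scramble right of it; points are arrays and bars are means (n = 2). SPRY1 is lowest on the DMSO arrays and PTPRR is lowest on the CEP701 arrays, at 5.34 and 3.84.

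SPRY2, the Sprouty gene with the steadiest replicates here, had signals of 601 and 575 with CEP701, against 811 and 760 with DMSO. The treated arrays were both lower and the groups did not overlap. The log2 difference of -0.41 ± 0.16 (SE; 95% interval -0.77 to -0.06) had an unadjusted p of 0.0280 but did not pass (limma adjusted p = 0.152). It was -0.66 with median scaling and -0.92 with scaling to the poly-A controls, again without passing (adjusted p = 0.0628 and 0.0514) and with the median of all genes at -0.14 and -0.39. SPRY4, another feedback inhibitor of RAS activation, had signals of 76.7 and 86.9 with CEP701, against 108 and 18.5 with DMSO. Its vehicle arrays lie on either side of the treated ones, and the interval of the log2 difference, -0.76 to 2.08, covers changes of either sign. Without DMSO replicate 1 the value was 1.68 and without DMSO replicate 2 it was -0.36, neither of which passed.

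SPRED1 had signals of 1478 and 1189 with CEP701, against 1596 and 1467 with DMSO, and the groups overlapped. The log2 difference was -0.21 (95% interval -0.80 to 0.39; adjusted p = 0.678). The second SPRED1 probe set had 180 and 138 with CEP701, against 412 and 278 with DMSO. There the groups did not overlap and the log2 difference was -1.05 (adjusted p = 0.166 with every probe set tested). The third had 24.0 and 52.3 with CEP701, against 86.3 and 48.1 with DMSO, a log2 difference of -0.70 (adjusted p = 0.460). All 3 SPRED1 probe sets were thus lower on average with the drug, by sizes that differ widely, and none passed.

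SPRED2, the second Spred protein that binds neurofibromin, had signals of 403 and 609 with CEP701, against 499 and 603 with DMSO. The groups overlapped and the log2 difference was -0.14 (95% interval -0.67 to 0.38; adjusted p = 0.753). The other SPRED2 probe sets did not pass the filter and reached at most 39.1 on any array. At the chosen probe sets, SPRY1, SPRY2 and PTPRR did not overlap between CEP701 and DMSO, which is 3 of 6 beside 62.0% of all genes, 36.3% higher and 25.7% lower.

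**Figure D2:**
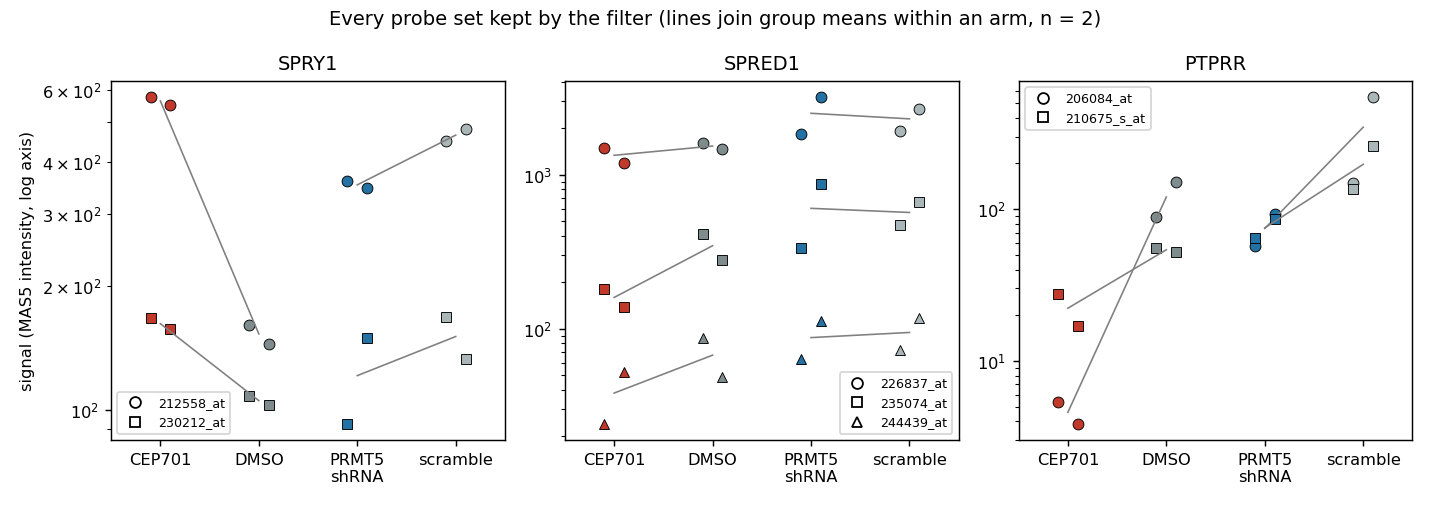
Signal on each array for every probe set of SPRY1, SPRED1 and PTPRR that passed the filter, in MAS5 intensity on a log axis; symbols mark probe sets and lines join group means within an arm (n = 2). The direction between CEP701 and DMSO is the same at each probe set of a gene while the steepness differs; heights of different probe sets are not comparable.

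The remaining genes of these classes were read in the same way. SPRY3, the fourth Sprouty gene, had signals of 74.5 and 93.1 with CEP701, against 47.3 and 7.20 with DMSO (log2 difference 1.57; adjusted p = 0.185), and it entered the test only through the CEP701 arrays, so a difference was built into its selection. SPRED3 had 87.0 and 100.4 with CEP701, against 64.8 and 67.2 with DMSO (log2 difference 0.45; adjusted p = 0.533). PTPN7, an ERK phosphatase of blood cells in PTPRR's class, had 2649 and 2883 with CEP701, against 2611 and 2964 with DMSO (log2 difference -0.01; 95% interval -0.37 to 0.35; adjusted p = 0.979). PTPN5, the third phosphatase of that class, had 111 and 106 with CEP701, against 79.8 and 19.2 with DMSO (log2 difference 1.21; adjusted p = 0.340). PTPN5 too needed the CEP701 arrays to enter the test, since outside them just DMSO replicate 1 was above 60.0. None of these 4 genes passed with the drug, and whether their changes differ from those of SPRY1 or PTPRR was not tested.

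The rest of the pathway was read from lists chosen for this tissue, some of whose genes stand in more than 1 list. Each count of calls with CEP701 is to be read against 3.74% of all genes higher and 2.04% lower, 5.78% in all. These are calls of the main fit. The replicate block called 1715 of the 14162 genes higher and 1325 lower with CEP701. With it GAB1, KSR1, RASGRP2, CBLB, CSNK1E, RGS1, DUSP7, FOSL1, DUSP4 and CSF2RB, given below as not passing, did pass. Of the ERK-induced transcripts 10 then fell and 1 rose, and of the other inhibitors 7 fell and 3 rose. Of 25 genes of the ERK cascade core measured, 3 rose and none fell with CEP701 (median log2 difference 0.17, against 0.10 for all genes). RPS6KA3, a kinase that ERK activates, averaged 4145 ± 6.63 with CEP701 and 1790 ± 5.78 with DMSO (SD, n = 2; adjusted p = 2.90e-03), and RRAS, a RAS-related GTPase, rose by 1.17 on the log2 scale. SOS2, an exchange factor that activates RAS, rose by 0.96 (adjusted p = 0.0497). GAB1 and KSR1, at 0.77 and 0.65, were the nearest that did not pass.

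Of 10 RAS exchange factors and GTPase-activating proteins, 1 rose and none fell (median -0.13), a share near the 5.78% of all genes called. It was RASAL3, an inactivator of RAS, at 1.10 (adjusted p = 0.0475). RASGRP2 and RASA3, at -0.49 and 0.52, did not pass. Of 23 Sprouty and Spred partners, 1 rose and none fell (median -0.02), again near 5.78%. KIT, the receptor of stem cell factor, averaged 27503 ± 1489 with CEP701 and 7131 ± 278 with DMSO (SD, n = 2; adjusted p = 0.0261). CBLB, a ubiquitin ligase, stood at 1.10 and CSNK1E, a casein kinase, at -1.12 without passing.

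Other inhibitors of ERK signalling moved in both directions. Of 20 measured, 2 rose and 4 fell (median -0.04), beside 3.74% of all genes higher and 2.04% lower. TRIB1, a pseudokinase that binds MEK, rose by 1.28 and the adaptor DOK3 by 1.04. The ERK phosphatase DUSP6 averaged 128 ± 7.68 with CEP701 and 1721 ± 202 with DMSO (SD, n = 2; log2 difference -3.65), and DUSP5, an ERK phosphatase of the nucleus, was at -1.27. PEA15, which holds ERK in the cytoplasm, fell by 0.83 and LRIG1, an inhibitor of receptor kinases, by 1.77, the last with drug-arm signals of 37.4 or less on average. RGS1 and DUSP7, at 1.07 and -0.57, did not pass.

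Of 22 ERK-induced transcripts, which overlap the list above in 3 DUSP genes, 5 fell and none rose (median -0.34), beside 2.04% of all genes lower. Besides DUSP6 and DUSP5, these were ETV5, an ETS factor downstream of ERK, at -2.73, PHLDA2 at -1.03 and IER3 at -1.04. FOSL1 and DUSP4 stood at -1.59 and -1.79 without passing. SPRY1 rose on the arrays where these 5 transcripts fell. Of 27 receptors and JAK kinases, 4 rose and none fell (median 0.38), beside 3.74% of all genes higher. They were KIT at 1.95, TEK, the angiopoietin receptor, at 1.54, IGF1R at 1.27 and EPOR, the erythropoietin receptor, at 1.09. CSF2RB and FLT1, at 0.48 and 1.17, did not pass.

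**Figure D3:**
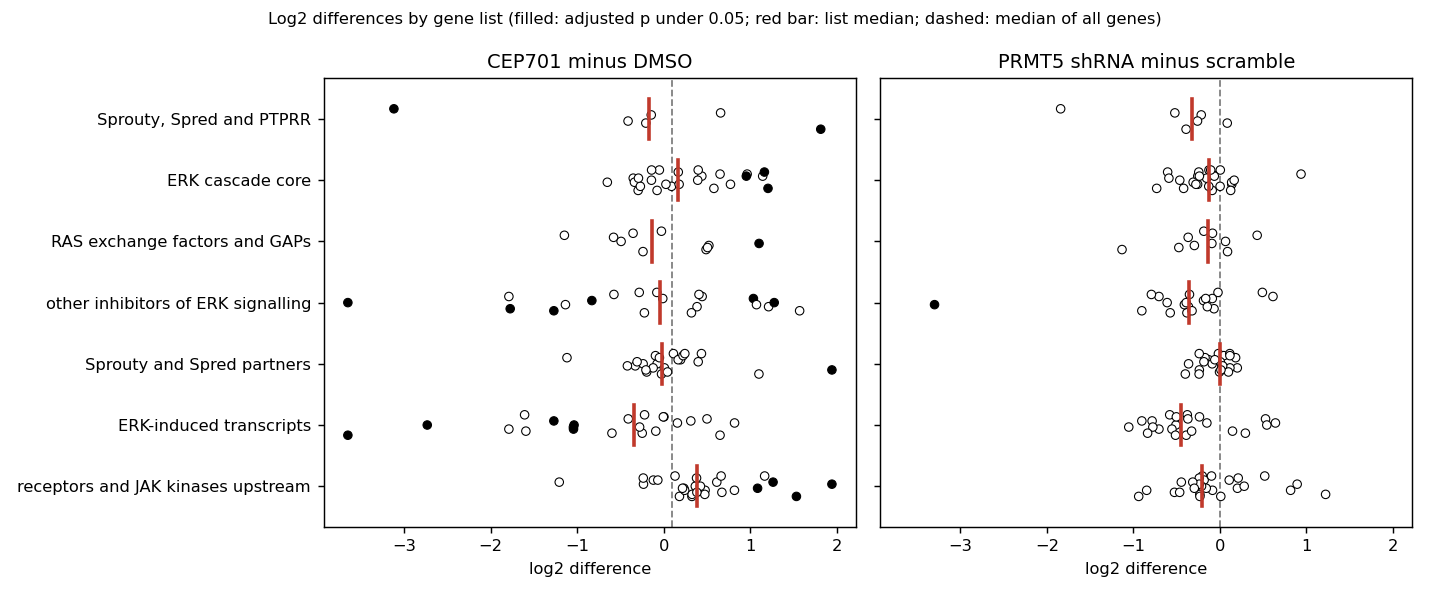
Log2 difference of each measured gene by list, for CEP701 minus DMSO on the left and PRMT5 shRNA minus scramble on the right; filled points have adjusted p under 0.05, red bars are list medians and the dashed line is the median of all genes. Among the 6 genes in the top row, SPRY1 at 1.82 and PTPRR at -3.12 are filled on the left and none is filled on the right.

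PRMT5 shRNA was set against scramble to find the transcripts that differ after knockdown. None of the 6 genes passed with limma, where 0.148% of all genes were called, 0.00706% higher and 0.141% lower, and 1 of the 6, PTPRR, had an unadjusted p under 0.05. The median log2 difference of the 6 was -0.33, against 0.00 for all genes, and 5 of the 6 were lower. The array titles of this arm share a date-like suffix by replicate, and the fit with the replicate block, which uses it, called 212 genes against 21 without it, and again none of the 6.

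PTPRR had signals of 56.8 and 92.3 with PRMT5 shRNA, against 148 and 544 with scramble. Both knockdown arrays were lower, and the scramble arrays differed from each other by more than the groups did at the nearest points. The log2 difference was -1.84 ± 0.60 (SE; 95% interval -3.19 to -0.49; unadjusted p = 0.0128; adjusted p = 0.529). Without scramble replicate 2 the value was -0.94 and did not pass. The second probe set had 64.1 and 86.2 with PRMT5 shRNA, against 135 and 259 with scramble, a log2 difference of -1.23 (adjusted p = 0.693 with every probe set tested, where 0.131% were called).

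SPRY1 had signals of 359 and 345 with PRMT5 shRNA, against 450 and 481 with scramble. The groups did not overlap, and the log2 difference was -0.39 ± 0.20 (SE; 95% interval -0.85 to 0.07; adjusted p = 0.791). The second SPRY1 probe set had 92.4 and 150 with PRMT5 shRNA, against 169 and 133 with scramble, which overlap. SPRY2 had 1131 and 1126 with PRMT5 shRNA, against 1381 and 1324 with scramble. Those groups did not overlap either, with a log2 difference of -0.26 (95% interval -0.61 to 0.10; adjusted p = 0.823). SPRY4 had 67.1 and 140 with PRMT5 shRNA, against 164 and 127 with scramble, and the 95% interval of its log2 difference, -1.94 to 0.90, covers either sign.

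SPRED1 had signals of 1827 and 3171 with PRMT5 shRNA, against 1929 and 2671 with scramble. The second array of each group was the higher one, the groups overlapped, and the log2 difference was 0.08 (95% interval -0.51 to 0.68; adjusted p = 0.991). SPRED2 had 1156 and 916 with PRMT5 shRNA, against 1165 and 1228 with scramble (log2 difference -0.22; 95% interval -0.74 to 0.31; adjusted p = 0.931). At the chosen probe sets, SPRY1, SPRY2, SPRED2 and PTPRR were lower without overlap, which is 4 of 6 beside 30.2% of all genes in either direction, 14.1% higher and 16.1% lower. This count was not tested. For SPRED2 the nearest arrays were 1156 and 1165. Its other probe sets, which did not pass the filter, were higher on both knockdown arrays. One had 39.1 and 10.8 against 3.99 and 5.00 with scramble, and the other 15.9 and 16.2 against 1.64 and 3.09. SPRY3, SPRED3 and PTPN7 did not pass, with log2 differences of -0.32, 0.61 and -0.16. PTPN5 was at 5.22 or less on all 4 arrays of the arm, which is too low for a difference to be read.

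Among the pathway lists, RGS1, a regulator of G-protein signalling, was the one gene that passed with PRMT5 shRNA without the replicate block. It averaged 470 ± 154 with PRMT5 shRNA and 4589 ± 179 with scramble (SD, n = 2; log2 difference -3.30; adjusted p = 4.27e-03). None passed among the 25 cascade genes (median -0.13), the 10 exchange factors and GTPase-activating proteins (-0.14), the 23 partners (-0.0046), the 22 ERK-induced transcripts (-0.45) or the 27 receptors and JAK kinases (-0.20). The genes of lowest p that did not pass were SHC1, an adaptor of receptor kinases, at -0.59 and RPS6KA3 at -0.42 in the cascade, MAFF at -0.78 and DUSP5 at -0.90 among ERK-induced transcripts, and DUSP7 at -0.79 and TRIB1 at -0.61 among the other inhibitors. Further down were RASGRP1 and RASGRP4 at -1.13 and -0.47, PTPN1 and PLCG2 at -0.36 and -0.24, and the receptors IL3RA and ERBB3 at -0.94 and 1.22. With the replicate block SHC1 (adjusted p = 0.0232), MAFF (0.0236), DUSP7 (0.0141) and TRIB1 (0.0285) also passed, lower, as did IER2 at -0.58 (0.0470) and, higher, MYC at 0.53 (0.0362), both ERK-induced and named after their values were seen.

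The difference of the drug and knockdown effects was tested as an interaction. The drug was given in one arm and the knockdown made in the other, so treatment and arm cannot be told apart here. SPRY1 averaged 153 with DMSO and 466 with scramble, so its effects are taken from different control levels. SPRY1 passed, with a difference of 2.21 ± 0.29 on the log2 scale (SE; 95% interval 1.56 to 2.86; adjusted p = 0.0153), which sets 1.82 with CEP701 against -0.39 with PRMT5 shRNA. At the second SPRY1 probe set the difference was 0.90 and did not pass (adjusted p = 0.333 with every probe set tested). That 1 of 6 stands beside 1.43% of all genes called, 1.11% higher and 0.325% lower. It was lost when arrays were scaled to the poly-A controls (1.68, adjusted p = 0.103), with the mean of probe sets (1.55, adjusted p = 0.0560), without a variance trend (adjusted p = 0.0621) and without any 1 of the 4 drug-arm arrays (adjusted p of 0.0730 to 0.127).

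PTPRR, with negative log2 differences in both comparisons, had a difference of effects of -1.28 with an interval of -3.19 to 0.63 (adjusted p = 0.442). With the mean of its probe sets it was -0.53, and at the second probe set 0.22, so its sign depends on the probe set. The other 4 genes had differences of effects of -0.29 to 1.18 and adjusted p of 0.500 to 0.930, so no difference between drug and knockdown was detectable for them with these arrays. From the pathway lists, RPS6KA3 at 1.63, RRAS at 1.77, RGS1 at 4.37, TRIB1 at 1.89, IGF1R at 1.51 and TEK at 1.77 passed in that direction, and DUSP6 at -3.26, ETV5 at -2.22 and PHLDA2 at -1.58 in the other.

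**Figure D4:**
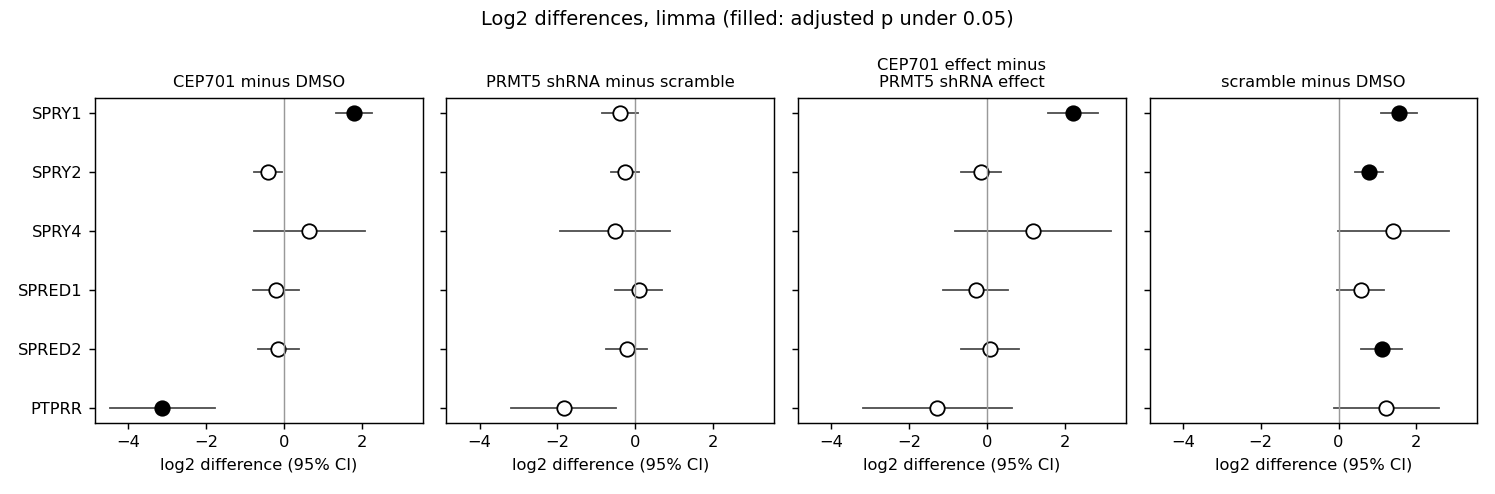
Log2 difference with its 95% interval for the 6 genes in the 4 contrasts; filled points have adjusted p under 0.05. SPRY1 is filled in 3 panels, at 1.82, 2.21 and 1.54, PTPRR in the first at -3.12, and SPRY2 and SPRED2 in the last at 0.78 and 1.11.

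The control groups themselves differed. All 6 genes were higher in scramble than in DMSO cells, and SPRY1, SPRY2 and SPRED2 passed, which is 3 of 6 beside 45.8% of all genes called in either direction, 25.5% higher and 20.3% lower. The median of the 6 was 1.17, against 0.11 for all genes. Arm, virus and vehicle cannot be told apart in this contrast, and it shares its arrays with the other contrasts. The part of the granulocyte and epithelial markers that also separate the arms was not tested.

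SPRY1 had signals of 450 and 481 with scramble, against 161 and 145 with DMSO (log2 difference 1.54 ± 0.20, SE; adjusted p = 2.78e-04). The second SPRY1 probe set had 169 and 133 with scramble, against 108 and 103 with DMSO, and did not pass at 0.47 (adjusted p = 0.272 with every probe set tested). SPRED2 had 1165 and 1228 with scramble, against 499 and 603 with DMSO (1.11 ± 0.23; adjusted p = 3.72e-03), and SPRY2 had 1381 and 1324, against 811 and 760 (0.78 ± 0.16; adjusted p = 3.15e-03). With scaling to the poly-A controls, SPRED2 and SPRY2 did not pass (adjusted p = 0.0872 and 0.285), nor did SPRY2 with median scaling (adjusted p = 0.0961). SPRY4, SPRED1 and PTPRR were at 1.41, 0.57 and 1.23 with adjusted p of 0.0961, 0.109 and 0.124. The second PTPRR probe set had 135 and 259 with scramble, against 55.4 and 52.5 with DMSO, and passed at 1.63 (adjusted p = 0.0161 with every probe set tested, where 41.7% were called). It entered the test only through the shRNA-arm arrays, so a difference between the arms was partly built into its selection. SPRY4 passed without DMSO replicate 1 (2.43, adjusted p = 0.0111) and PTPRR without scramble replicate 1 (2.13, adjusted p = 0.0161). PTPRR also passed with the mean of its probe sets (1.43, adjusted p = 0.0387) and with 1 added, where the second probe set was the chosen one (1.78, adjusted p = 0.0251). Both of these calls use that second probe set, with the same limit. SPRED1 passed without either PRMT5 shRNA array (adjusted p = 0.0376 and 0.0382) and with the replicate block (3.53e-03). At the chosen probe sets 5 of the 6 did not overlap between scramble and DMSO, PTPRR being the other, beside 74.1% of all genes without overlap, 40.8% higher and 33.2% lower.

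Over the 4 groups the order of levels differed between genes. SPRY1 was highest with CEP701 at 564 ± 16.0, then scramble at 466 ± 22.3, PRMT5 shRNA at 352 ± 9.93 and DMSO at 153 ± 11.4 (SD, n = 2), and no neighbours in that order overlapped. SPRY2 was highest with scramble at 1353 ± 40.1, then PRMT5 shRNA at 1129 ± 3.06, DMSO at 785 ± 35.6 and CEP701 at 588 ± 18.5, again with no overlap between neighbours. SPRED2 followed the order of SPRY2, from 1197 ± 44.7 with scramble to 506 ± 146 with CEP701, and there the CEP701 and DMSO arrays overlapped. SPRED1 overlapped within each arm, PRMT5 shRNA with scramble and CEP701 with DMSO, while each shRNA-arm array was above each drug-arm array. In PTPRR only CEP701, at 4.59 ± 1.06, stood apart from its neighbour, PRMT5 shRNA at 74.5 ± 25.0. All neighbours of SPRY4 overlapped.

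The genes with the most similar pattern over the 8 arrays were taken by the smallest root mean square difference of log2 values, each gene centred on its own mean. For SPRY1 these were RBKS, a ribokinase, at 0.17 and CR1, a complement receptor, at 0.20, against a range of 1.92 for SPRY1 itself. RBKS had 192 and 217 with CEP701, 73.1 and 42.1 with DMSO, 140 and 118 with PRMT5 shRNA and 165 and 203 with scramble. SPRY2 was nearest to PDE7A, a phosphodiesterase, at 0.07 and IER5 at 0.08. For SPRED1 they were POR, a cytochrome P450 reductase, at 0.11 and RAP1A, a RAS-related GTPase, at 0.13, and for SPRED2 the exchanger SLC8B1 at 0.08 and the DNA repair protein XPC at 0.09. SPRY4 was nearest to RASGEF1B and MOCS1, at 0.25 and 0.27, whose signals reached at most 67.1 and 90.9. SPRY4 and these neighbours were each lowest on DMSO replicate 2, at 18.5, 5.79 and 7.97, so this likeness rests on low signals.

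PTPRR, with a range of 5.32, was nearest to ETV5 at 0.72 and to VEGFA, an angiogenic factor, at 0.76. ETV5 had signals of 162 and 150 with CEP701, 1050 and 1135 with DMSO, 711 and 1001 with PRMT5 shRNA and 1115 and 1303 with scramble. Its CEP701 arrays were the lowest, as for PTPRR, but its other groups lay closer together. All these distances rest on 4 groups of 2 arrays that share the difference between arms.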

How the data were processed

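The 8 Affymetrix arrays were deposited by the authors as MAS5 signals, a linear intensity per probe set computed in Affymetrix Expression Console (version not given) per the submitters' processing notes. The trimmed mean, leaving out 2% at each end, is the same on every array. Other array measures differed. The median signal was 56.6 and 63.7 with CEP701, against 51.5 and 49.4 with DMSO, and the poly-A controls averaged 9.47 and 9.26 against 8.78 and 8.92 (log2). The actin 5' to 3' ratio was 0.116 and 0.161 with CEP701, 0.199 and 0.198 with DMSO, 0.187 and 0.335 with PRMT5 shRNA and 0.141 and 0.179 with scramble. Whether that ratio bears on the results was not tested. Depth in reads does not apply, and 2 arrays per group limit the precision.

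For this text, log2(signal + 10) was taken. Of 54675 probe sets, 41097 name 1 gene, 1801 several and 11777 none in the platform annotation, and 41043 of the symbols were updated through their Entrez ID. Probe sets above 60.0, the median of all signals, on at least 2 arrays were kept (26725), and each gene was read from the one with the highest mean (14162 genes). All 4 groups were fitted in one model with limma 3.58.1 (lmFit, eBayes with trend) in R 4.3.3, with Benjamini-Hochberg adjustment over all genes and a threshold of 0.05. Residual degrees of freedom were 4, and the code was tested on simulated data. Probe sets other than the chosen ones were tested in a fit of all kept probe sets. Windows, motifs and figures were made with Python 3.11.15, pandas 2.3.3 and matplotlib 3.10.9.

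The array titles of the shRNA arm share a date-like suffix by replicate, taken to mark a shared day, and deviations of same-numbered arrays from their group means correlated at 0.32. Drug-arm arrays share only a number (-0.01). The main fit, without a block, was kept, and the replicate block, with a term for each arm, was an alternative whose values stand beside PRMT5 shRNA results where they change a call. For CEP701 it is given for the pathway list genes named as not passing. The other alternatives were the added number, the filter, the normalization, the probe set rule, the variance trend, each arm alone, and leaving out each array.

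The 6 genes and the gene lists were chosen with earlier results of these data known. Named besides them were the rest of the families and of PTPRR's phosphatase class, PRMT5, up to 4 genes per list and direction that passed by lowest adjusted p, up to 2 per list of lowest p that did not, and the 2 nearest patterns per gene.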

Additional observations from a re-analysis of the deposited data

How the results depend on the processing

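Of the 6 genes, 2 were called with CEP701. The count was 1 with 1 added before log2, 1 with the mean of a gene's probe sets and 1 without a variance trend. With 1 added, the second PTPRR probe set became the chosen one, at -1.28 (adjusted p = 0.193). SPRY1 was called in each of 13 alternatives to the fit on all arrays, at 1.20 to 1.88, and PTPRR in 10 of them, at -3.48 to -2.03. Leaving out 1 array at a time gave 0 to 2 calls, with 0 without CEP701 replicate 1, CEP701 replicate 2 or DMSO replicate 2 and 1 without DMSO replicate 1. With PRMT5 shRNA the count was 0 in every alternative run, the replicate block included. For the difference of effects, 1 gene was called, against 0 with scaling to the poly-A controls, 0 with the mean of probe sets and 0 without a trend, and 0 to 1 when 1 array was left out. Between scramble and DMSO 3 were called, against 1 with scaling to the poly-A controls, and 3 to 4 when 1 array was left out. Between scramble and DMSO, SPRY2 was also lost with median scaling, and PTPRR was gained with 1 added before log2 and with the mean of probe sets. With the replicate block the counts were 2 with CEP701, 0 with PRMT5 shRNA, 1 for the difference and 4 between scramble and DMSO, where SPRED1 was added, and no other call of the 6 genes changed. Over all genes the block gave 3040 calls with CEP701 against 819, 212 with PRMT5 shRNA against 21 and 2296 for the difference against 203. Leaving out CEP701 replicate 1, CEP701 replicate 2, DMSO replicate 1 or DMSO replicate 2 gave 6, 18, 50 and 23 calls with CEP701, and 0 for the difference each time. Leaving out 1 shRNA-arm array gave 66 to 808 for the difference, and leaving out any 1 of the 8 arrays 3 to 27 with PRMT5 shRNA. Without a trend the counts were 167 with CEP701, 0 with PRMT5 shRNA, 0 for the difference and 5877 between scramble and DMSO. The split of CEP701 calls into higher and lower was 530 and 289, against 238 and 672 with median scaling and 91 and 969 with poly-A scaling, which moved the median of all genes to -0.14 and -0.39. Fitting each arm alone gave 3208 calls with CEP701 and 0 with PRMT5 shRNA, and gives no value for the difference or for scramble against DMSO. Where no reason is given, the cause was not tested. Signals near background, as for PTPRR with CEP701 and for SPRY4, limit what these arrays show.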

Other observations

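The pathway lists also differed between the control groups, where arm, virus and vehicle cannot be told apart and 45.8% of all genes were called. Of 22 ERK-induced transcripts, 13 were higher in scramble than in DMSO cells and 1 was lower, with a median log2 difference of 1.92 against 0.11 for all genes. DUSP6, an ERK phosphatase, averaged 7521 ± 2047 with scramble and 1721 ± 202 with DMSO (SD, n = 2). Of 25 ERK cascade genes, 12 were higher and 4 lower, and of 20 other ERK inhibitors 7 were higher and 5 lower. RGS1, which passed with PRMT5 shRNA, averaged 4589 ± 179 with scramble and 176 ± 38.3 with DMSO (SD, n = 2; log2 difference 4.64). PTPN7, the ERK phosphatase of blood cells, was lower in scramble at -0.82 (adjusted p = 2.43e-03). The share of these differences that belongs to the markers separating the arms was not tested.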
